A study of Danio rerio with 36 samples.

Results

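Fibroblasts of regenerating zebrafish caudal fins were compared with whole regenerating fins at 4 days post amputation (dpa) by counts of messenger RNA per gene. The members were the 4 RNA libraries whose labels give injured fins at 4 dpa, 2 of fibroblasts (batch 3) and 2 of whole fins (batch 1), of 18 RNA libraries and 36 samples in the series. The series paired RNA with chromatin accessibility to look for regulatory elements of regeneration, and its accessibility samples were not analysed here. Whole fins came from the outbred Ekkwill (EK) strain, with 15 fish in a pool, aged 4 to 12 months in the growth protocol and 3 to 12 months in the extract protocol. A fibroblast library pooled the fins of 75 fish that carried ubi:switch, a ubiquitous reporter changed by Cre recombinase, with a transgene under the tph1b promoter. That transgene is Tg(tph1b:mCherry-NTR;ubi:switch) in the growth protocol and Tg(tph1b:creER;ubi:switch), a tamoxifen-activated Cre, in the treatment protocol. The treatment protocol gives 4 µM tamoxifen for 12 h at 2 dpa of a first amputation, then 2 months of regrowth before the fins were pooled, so the label reaches cells in which the promoter was active during that first regeneration, and their descendants. A sort by mCherry is described for the accessibility samples, and none is described for the RNA libraries. No source used here states the strain or age of the transgenic fish. Batch 3 also held libraries labelled LEN deletion, 1 at 0 dpa and 1 at 2 dpa, treated here as whole fins of another genotype. They serve below in the fits that address batch and in picking genes induced early after amputation. The label alone does not say what was deleted. The design text has samples of both assays dissociated with Liberase, a tissue-digesting enzyme blend, whereas the RNA protocol describes fin tissue put into Tri-Reagent. Tissue, batch, transgene, tamoxifen and pool size differed between the groups, handling may have, and their parts in any difference below cannot be told apart.

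A fin that has lost its tip grows a blastema, a mound of proliferating mesenchyme under a thickened wound epidermis. Fibroblasts of the ray interior supply much of that mesenchyme and lay down actinodin fibrils, collagen and other matrix, while osteoblasts rebuild the bony rays. Sonic hedgehog, Fgf, Wnt, Bmp and retinoic acid signals pass between epidermis, blastema and bone during outgrowth. A whole regenerate also holds vessels, nerves, pigment cells and leukocytes.

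The fibroblast libraries held 36522921 and 39205798 gene counts and the whole-fin libraries 31657833 and 31619625. The gene with most counts was col1a1a, a collagen I chain, in the fibroblasts (4.83 and 6.51% of counts) and the keratin krt5 in the whole fins (3.87 and 3.53%). Replicates of each group differed by more than sampling noise (chi-square per degree of freedom 41.4 for fibroblasts and 16.4 for whole fins). The protocols call the replicates biological pools, and p-values rest on the spread between those pools. Levels are TMM-scaled CPM, which put libraries on a common size, given for the fibroblast replicates first and the whole-fin replicates second, and a number in brackets after a gene is its log2 fold change, fibroblasts minus whole fins. In bulk RNA, fewer cells of a type and less RNA per cell cannot be told apart. CPM are not divided by gene length, so each gene is compared with itself across libraries and not with other genes.

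Most genes differed between the fibroblast libraries and the whole regenerate. By edgeR's quasi-likelihood test, called at an adjusted p under 0.05, 9086 of 12057 tested genes were called (75.4%), 4443 of them higher (36.8%) and 4643 lower (38.5%) in the fibroblasts. Called genes with at least a 4-fold difference numbered 835 higher (6.93%) and 1382 lower (11.5%), and for 10649 genes (88.3%) the libraries of the groups did not overlap. The median log2 fold change of all tested genes was -0.03; scaling by library size alone moved it by -0.13, so fold changes are relative to the TMM scale. Counts of list members are to be read against these shares.

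Batch could be addressed in 2 partial ways, neither of which is free of other differences. A fit of 12 libraries with a batch term called 51.6% of 12526 genes (23.5% higher, 28% lower). It kept 2615 of the 4443 higher calls and 3062 of the 4643 lower calls. The batch term was estimated from uninjured whole fins present in both batches. These were 2 libraries of batch 1, 1 batch 3 library labelled whole fin and 1 labelled LEN deletion, with that label as a term. A fit within batch 3, with whole fins at 2 dpa in place of 4 dpa (1 library labelled whole fin and 1 labelled LEN deletion, with that label as a term), called 59.9% of 12453 genes (29.7% higher, 30.27% lower) and kept 3145 and 3255. Calls kept in both numbered 2348 higher and 2686 lower. The call turned to the opposite direction for 76 and 45 genes with the batch term and for 59 and 125 within batch 3. A turned sign of a named gene called in either fit is given beside it or in the closing section. Of the genes named below as higher or lower, the call was lost with the batch term for and3, col11a1a, col1a1a, col1a1b, col1a2, col9a1b, dkk1a, dusp6, fgf24, frzb, fsta, gli1, krt8, mmp14a, mpeg1.1, mpx, msxe, ocstamp, prrx1b, scpp7, sfrp2 and tbx18. It was lost within batch 3 for adamts9, adra2b, and3, bmpr2a, ccl27b, col11a1a, col1a1b, dld, fbn2b, fhl2b, gli1, inhbab, jag1b, krt8, lepb, loxl2a, mki67, mpx, nog3, postnb, slc8a4b and wnt2. Named genes are drawn from the 15 largest fold changes and 10 largest CPM differences in each direction, 22 genes of known roles, up to 3 members with the smallest p in each list and role, and paralogue pairs; list members named beyond these were picked after their values were seen. Paralogues given only as the other copy of a named gene are left out of the lists of lost calls and of the closing section.

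The largest fold changes included genes of stress and innate immunity on the fibroblast side, and of bone, signalling and epidermal adhesion on the whole-fin side. Beside heat shock genes, the fibroblasts were higher in the granulin grn1 at 142 and 156 CPM against 2.38 and 1.49 CPM (edgeR log2 fold change 6.28 with SE 0.18, adjusted p = 1.29e-11), the small heat shock gene hspb1 (6.25), the peptidoglycan recognition gene pglyrp5 (6.03), abhd2a (6.08) and nab1a, a corepressor of Egr factors (6.08). The gene pm20d1.1 had 644 counts over the fibroblast libraries against 1 (584-fold, 95% counting interval 104 to 23106). On the other side stood the calcium-activated channel trpm4b.2 at 0.431 and 0.61 CPM against 63 and 71.6 CPM (edgeR log2 fold change -6.99 with SE 0.18, adjusted p = 7.84e-12) and the exchanger slc8a4b (-6.54), and the membrane protease tmprss13a had 3 counts against 531 over the whole fins (195-fold lower, interval 66.4 to 949). The 10 genes with the largest CPM loss took in the keratins krt5, krt91 at 992 and 932 CPM against 15125 and 12951 CPM (-3.85), krt15 (-4.50) and krt94 (-5.68), the bone collagen col10a1a and the translation factor eef1a1l1 at 2013 and 2132 CPM against 9727 and 8926 CPM (-2.16). They also took in the matrix gene postnb, a periostin, at 2859.5 and 3348 CPM against 7238 and 6269 CPM (-1.11), whose difference within batch 3 was -0.04. The groups did not overlap for these genes. For the largest fold changes this was a condition of naming, and 88.3% of all tested genes had no overlap.

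The marker of the lineage was higher in the fibroblast libraries than in the 4 dpa whole fins. The serotonin-synthesis gene tph1b, whose promoter drives the transgenes, stood at 208 and 207 CPM against 42.7 and 51 CPM (edgeR log2 fold change 2.16 with SE 0.12, adjusted p = 1.74e-09). Both fibroblast libraries were above both whole-fin libraries. In the 2 dpa whole fins of batch 3, however, tph1b reached 577.5 CPM (labelled whole fin) and 452.5 CPM (LEN deletion), above the fibroblasts, and within batch 3 its log2 difference was -1.55. At 0 dpa tph1b was at 5.46 and 6.34 CPM in the fibroblasts and 2.16 and 1.82 CPM in the whole fins of batch 1. Its level thus differed between times in both tissues, and alone it does not measure how pure the fibroblast libraries were. Of 27 tested lineage and connective tissue genes, 14 were higher, 8 lower and 5 not called, with a median of 0.55. The counts were 10 and 3 with the batch term and 20 and 3 within batch 3. Log2 fold changes ran from -2.96 to 3.65, with 2 genes at least 4-fold higher and 2 at least 4-fold lower. Of the 8 lower genes only thy1 is named here. The mesenchymal transcription factor twist1a stood furthest apart, at 534 and 464 CPM against 41.9 and 38 CPM (edgeR log2 fold change 3.65 with SE 0.13, adjusted p = 2.85e-11), and its libraries did not overlap. Homeobox factors of connective tissue followed, prrx1a at 590.0 and 619 CPM against 193 and 193 CPM (1.66) and prrx1b at 289 and 341 CPM against 155 and 161 CPM (1.01). The matrix remodelling receptor genes mxra8a (1.32) and mxra8b (1.86), the proteoglycan ogn (1.55) and the T-box factor tbx18 (1.01) were also higher. Genes often used as fibroblast markers differed little: pdgfra, a Pdgf receptor, had 129 and 172 CPM against 118 and 129 CPM (0.30, edgeR adjusted p = 0.06) and twist2 69.1 and 71.1 CPM against 71.7 and 77.6 CPM (-0.08, edgeR adjusted p = 0.518). Within batch 3, however, twist2 was called higher. The surface protein thy1, a mammalian fibroblast marker, was lower, at 56 and 59 CPM against 374 and 369 CPM (edgeR log2 fold change -2.68 with SE 0.11, adjusted p = 1.2e-10), with no overlap.

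Markers of other cell types moved with the comparison, and their part in the other differences was not tested. Summed over each list, epidermal genes came to 20172 and 20239 CPM in the fibroblasts against 85824 and 82007 CPM in the whole fins, and osteoblast genes to 2641 and 3366 against 16655 and 15088 CPM. Leukocyte genes summed to more in the fibroblasts, 5574 and 5431 against 3941 and 4089 CPM. Immediate early and heat shock genes came to 47170 and 43703 against 4245 and 3535 CPM, a ratio of 11.7.

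**Figure D1:**
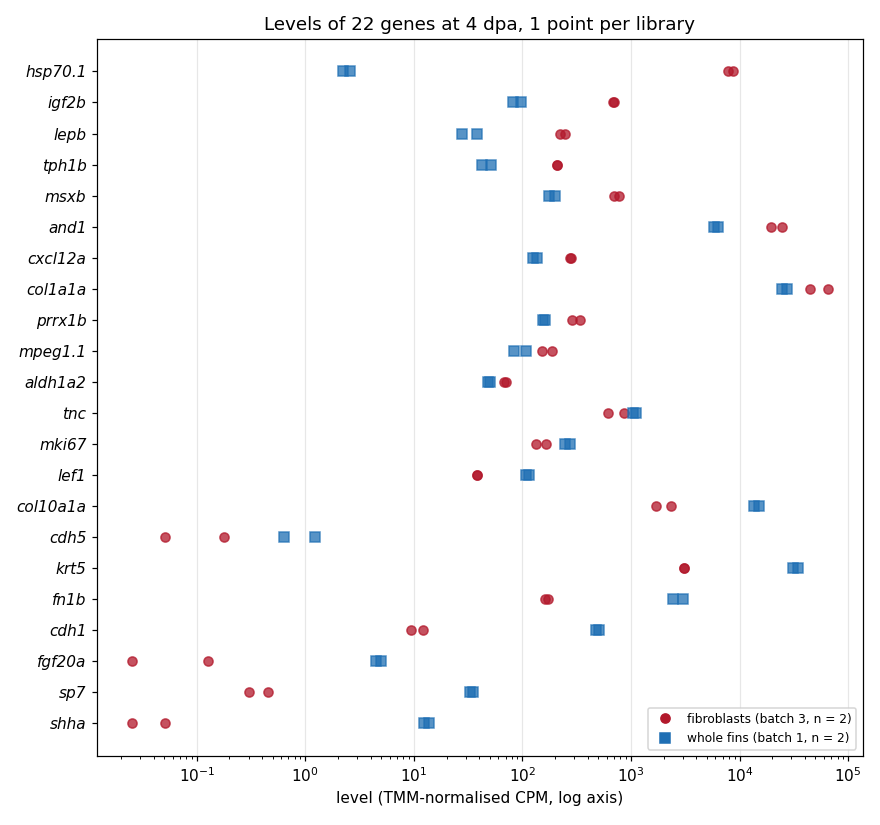
Levels of 22 genes at 4 dpa in TMM-normalised CPM on a log axis, 1 point per library, ordered by fold change. The groups do not overlap for any of the 22, nor for 88.3% of all 12057 tested genes. The genes tph1b, lepb and hsp70.1 lie to the right in the fibroblasts, while shha, sp7 and cdh1 lie to the right in the whole fins.

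Fin fibril and collagen I genes were higher in the fibroblasts and other fibrillar collagens lower, though collagen I was not called with the batch term. Actinodins are the non-collagen proteins of the actinotrichia, the fibrils at the fin edge. The actinodin and1 stood at 19441 and 24432 CPM against 6316 and 5860.5 CPM (edgeR log2 fold change 1.86 with SE 0.14, adjusted p = 4.4e-08) and and2 at 7254 and 8966 CPM against 2569.7 and 2499 CPM (edgeR log2 fold change 1.69 with SE 0.13, adjusted p = 5.75e-08). In both genes each fibroblast library held over 2 times the level of each whole-fin library. The actinodin and3 went the other way at a low level, 0.127 and 0.254 CPM against 4.89 and 6.66 CPM (-4.89), with -0.42 within batch 3. Of 11 fibrillar collagen chains 3 were higher and 8 lower, against 1 and 6 with the batch term and 3 and 5 within batch 3. The 3 were the chains of collagen I: col1a1a at 44703 and 64856 CPM against 27442 and 24599 CPM (edgeR log2 fold change 1.09 with SE 0.17, adjusted p = 7.63e-05), col1a2 (0.80) and col1a1b (0.51). With the batch term these became -0.14, -0.20 and -0.64, the opposite sign, and none was called. Within batch 3 they were 1.92, 1.04 and 0.52, the last not called. Among the lower chains were those of collagen XI, col11a1a (-1.31), col11a1b (-1.79) and col11a2 (-3.94), of collagen V, col5a3b at 33.2 and 36.8 CPM against 392 and 409 CPM (-3.50), and of collagen XXVII, col27a1a (-3.04). Collagen V and XI chains are minor components that join collagen I and II fibrils. Outside that list, col28a1a, the collagen XXVIII chain, was at 0.279 and 0.66 CPM against 54.7 and 53.5 CPM (-6.82).

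Enzymes and chaperones that mature collagen were mostly higher, 16 of 28 against 6 lower, with a median of 0.60. The collagen chaperone serpinh1b (Hsp47) stood at 3011 and 4064 CPM against 353 and 400.2 CPM (edgeR log2 fold change 3.25 with SE 0.16, adjusted p = 1.02e-09); every fibroblast library was above every whole-fin one. Higher too were the prolyl hydroxylase p4ha2 (2.03), the crosslinking oxidases lox (1.52) and loxl2a (1.78), and the lysyl hydroxylase plod3 (0.79). Opposite were 2 genes of the same work: p4hb, the shared subunit of prolyl hydroxylase, at 44.6 and 47.7 CPM against 576 and 503 CPM (edgeR log2 fold change -3.53 with SE 0.12, adjusted p = 3.01e-11), and the procollagen protease bmp1a at 24.1 and 26.2 CPM against 469 and 419.9 CPM (edgeR log2 fold change -4.13 with SE 0.12, adjusted p = 1.2e-11). Both kept a lower call with the batch term and within batch 3. The paralogue of bmp1a, bmp1b, was higher (0.60). Secretory pathway and unfolded protein response genes were higher in 40 of 61 (12 lower, median 0.75), among them the ER chaperone hspa5 at 5889 and 7639 CPM against 1029.7 and 876 CPM (2.84), the stress factor ddit3 (3.67) and the unfolded protein response factor xbp1 (1.99). With the batch term 19 of these were higher and 9 lower, and within batch 3 30 and 8.

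Other matrix genes split by molecule. Of 47 glycoprotein and proteoglycan genes 25 were higher and 16 lower (median 0.48). The balance was 14 and 16 with the batch term and 32 and 5 within batch 3. The hyaluronan synthase has1 stood at 102 and 86.2 CPM against 7.84 and 4.42 CPM (edgeR log2 fold change 3.96 with SE 0.26, adjusted p = 9.78e-06), and the adhesion protein gene tgfbi at 1189 and 1508 CPM against 218 and 183 CPM (2.76). Tenascin W, tnw, was higher at 865 and 1010.5 CPM against 218 and 188 CPM (2.22), whereas tenascin C, tnc, a matrix protein of the blastema, was lower at 614 and 853 CPM against 1122 and 1051 CPM (-0.55). The cartilage matrix gene matn3a had 841 counts over the fibroblast libraries against 2 over the whole fins (381-fold, 95% counting interval 105 to 3154). Fibronectins were lower: fn1b, a matrix protein of wounds, stood at 162 and 171 CPM against 2448 and 2996 CPM (edgeR log2 fold change -4.01 with SE 0.14, adjusted p = 2.69e-11) and fn1a at 355 and 459 CPM against 1233 and 1025 CPM (-1.46). No fibroblast library came near a whole-fin one for fn1b, and the 2 dpa whole fins held 20310 and 22640 CPM. The elastin gene elnb (-7.16) and the microfibril gene fbn2b (-2.47) were lower as well. The small proteoglycan bgna was lower here (-2.199) and higher against 2 dpa fins (1.14).

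Of 23 matrix proteases and inhibitors 15 were higher and 7 lower, against 6 and 4 with the batch term and 12 and 5 within batch 3. The metalloprotease inhibitor timp2a stood at 1993 and 2197 CPM against 738 and 733 CPM (edgeR log2 fold change 1.52 with SE 0.11, adjusted p = 3.41e-08) and the membrane protease mmp14a at 1369 and 1735 CPM against 759.6 and 649 CPM (1.15). Both were higher in each fibroblast library than in each whole-fin library, and plaub, a plasminogen activator, was lower (-4.29). The metalloprotease adamts9 was lower here (-2.52) and differed by 0.94 within batch 3.

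Genes known from the blastema were higher in 16 of 29 and lower in 9, with a median of 0.50 against -0.03 for all genes. The growth factor igf2b stood at 695 and 681 CPM against 97.8 and 81.9 CPM (edgeR log2 fold change 2.95 with SE 0.12, adjusted p = 1.37e-10). The leptin gene lepb, a hormone gene induced by fin injury, stood at 246 and 222 CPM against 38.05 and 27.8 CPM (edgeR log2 fold change 2.84 with SE 0.15, adjusted p = 3.48e-09). Each was several fold higher in both fibroblast libraries than in either whole-fin library. At 2 dpa in batch 3 lepb was at 116.5 CPM in the fins with no deletion on the label and 0.258 CPM in the LEN deletion, so its value within that batch rests on 1 library. Activin chain inhbaa was at 232 and 236 CPM against 44.2 and 39.1 CPM (2.50) and inhbab at 84.2 and 107 CPM against 24.2 and 24.5 CPM (1.99, with -0.43 within batch 3). The growth factor mdka, a midkine, was at 3659 and 4056 CPM against 1682 and 1556 CPM (1.27). Its paralogue mdkb was lower (-2.20). Muscle segment homeobox genes, long used to mark the fin blastema, split: msxb (699 and 769 CPM against 198 and 176 CPM, 1.99), msxc (2.199) and msxd (2.07) were higher, and msxa (3.27 and 4.24 CPM against 31.5 and 34 CPM, -3.11) and msxe (-1.62, with 1.42 within batch 3) lower. The retinoic acid synthesis gene aldh1a2 was slightly higher at 67.9 and 70.07 CPM against 47.9 and 50.5 CPM (edgeR log2 fold change 0.50 with SE 0.11, adjusted p = 0.000741). Its direction turned with the batch term (-0.73) and within batch 3 (-1.28). Some of these differences were present before injury. At 0 dpa igf2b was at 774 and 682 CPM in the fibroblasts against 60.8 and 69.35 CPM in the whole fins of batch 1. For msxb the 0 dpa levels were 1016 and 1435 CPM against 52.2 and 60.6 CPM, and fgf20a was lower at 0 dpa too (-2.92). Among the lower genes, the Wnt effector lef1 was at 38.5 and 38.3 CPM against 115 and 109 CPM (-1.53) and fgf20a, the Fgf ligand needed to start the blastema, at 0.0253 and 0.127 CPM against 4.53 and 5 CPM (-5.89).

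Transcription factors of mesenchyme were about as often higher (24 of 61) as lower (23), and the 14 others were not called. Both counts are near the shares of all tested genes, 36.8% higher and 38.5% lower. With the batch term 18 were higher and 20 lower, but within batch 3 33 were higher and 12 lower, and the median of -0.01 became 0.97. The higher ones included the LIM factors lhx9 at 112 and 137 CPM against 30.6 and 29.2 CPM (2.07) and lhx2b (1.63), the tendon factor scxa (1.67), six2a (1.67), snai1a (1.46) and sox11a (1.67). The lower ones included the homeobox cofactor meis1b at 4.05 and 5.03 CPM against 39.7 and 41.7 CPM (-3.15), the cartilage and progenitor factor sox9b at 5.32 and 4.11 CPM against 98 and 101 CPM (-4.39), eya2 (-4.52) and foxc1b (-2.92). Hox genes, searched by symbol after the files were open, divided by cluster, with 14 of 38 tested higher and 18 lower (14 and 12 with the batch term, 17 and 10 within batch 3). Of 12 hoxa genes 10 were higher and 1 lower, of 7 hoxd genes 7 were lower, of 12 hoxc genes 2 were higher and 5 lower, and of 7 hoxb genes 2 were higher and 5 lower. The posterior genes hoxa13a at 316 and 379 CPM against 99.5 and 98.9 CPM (edgeR log2 fold change 1.82 with SE 0.12, adjusted p = 9.37e-09), hoxa13b (1.31), hoxc13a (1.15) and hoxc13b (1.19) were higher. Among the hoxd genes, hoxd10a stood at 0.329 and 0.203 CPM against 5.57 and 5.72 CPM (-4.38) and hoxd13a at 0.431 and 0.33 CPM against 3.11 and 2.02 CPM (-2.73).

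**Figure D2:**
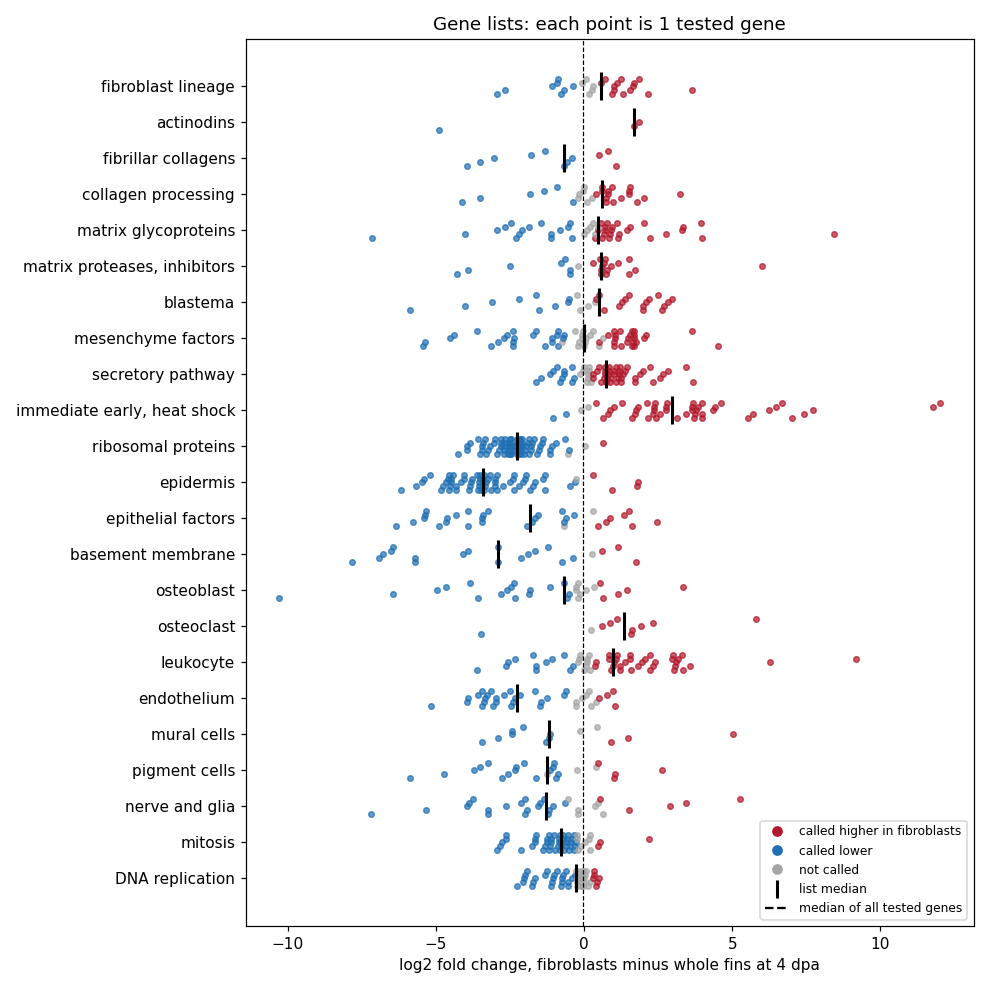
Log2 fold change of each tested gene of 23 lists, fibroblasts minus whole fins at 4 dpa (n = 2 and 2), with list medians and the median of all tested genes. Epidermal genes centre at -3.40 and ribosomal protein genes at -2.27, immediate early and heat shock genes at 2.97; fitted values of genes with 3 or fewer counts in a group depend on the fit.

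Signalling genes moved in both directions in every role except the Hedgehog ligands. For Fgf, 6 of 16 ligands were higher and 6 lower (3 and 3 with the batch term). These counts are near the shares of all tested genes, 36.8% higher and 38.5% lower. The mesenchymal ligand fgf10a stood at 75.3 and 88 CPM against 13 and 13.5 CPM (edgeR log2 fold change 2.64 with SE 0.12, adjusted p = 4.08e-10), above the whole fins in both libraries, and fgf10b was higher as well (1.63). The epidermal ligand fgf24 (-3.20) and fgf2 (-3.55) were lower. Of 11 targets and inhibitors 5 were higher and 4 lower, and 8 and 0 with the batch term. The Ets factors etv5a at 289 and 417 CPM against 45.6 and 43.5 CPM (3.00) and etv5b (3.09) and the inhibitor spry4 (2.74) were higher, while etv4 (-0.51, but 0.71 with the batch term) and dusp6 (-0.31, but 0.43) were lower. Of 7 receptors 2 were higher and 3 lower (3 and 2 with the batch term, 4 and 1 within batch 3). Their median of -0.14 became 0.44 with the batch term and 0.80 within batch 3. The decoy receptor fgfrl1a was higher (2.27) and fgfr1a lower (-1.77).

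Wnt ligands were lower in 9 of 17 and higher in 5. Those lower included wnt3 at 0.329 and 0.203 CPM against 9.11 and 9.9 CPM (-5.13), wnt7aa (-3.21) and wnt3a (-4.19); wnt16 was lower here (-2.88) and higher against 2 dpa fins (1.71). No count of wnt2 was found in the fibroblasts against 87 over the whole fins, at least 32.0-fold lower with a floor of 3 counts over the group. The noncanonical ligand wnt11 was higher at 3.47 and 3.17 CPM against 0.283 and 0.166 CPM (3.89), while wnt5a (-0.15) and wnt5b (-0.19) were not called. With the batch term and within batch 3, however, wnt5a was called higher. Of 14 secreted Wnt inhibitors 8 were higher and 1 lower, with frzb at 76 and 57.7 CPM against 13.7 and 9.73 CPM (edgeR log2 fold change 2.52 with SE 0.19, adjusted p = 1.2e-06) and sfrp2 at 702 and 712 CPM against 351 and 245 CPM (1.26). The lower gene was dkk1a (-1.15, but 0.90 within batch 3). With the batch term 4 of these were higher and 1 lower, and within batch 3 11 and 1. The receptors fzd7a (2.69) and fzd9b (2.43) were higher, and fzd10 (-3.11) and the coreceptor lrp6 at 2.48 and 3.76 CPM against 47.4 and 47.1 CPM (-3.91) lower.

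Both tested Hedgehog ligands were lower in the fibroblasts. Sonic hedgehog, shha, which fin epidermis makes over the ray branches, had 3 counts over the fibroblast libraries against 942 over the whole fins, 346-fold lower (95% counting interval 118 to 1682). Indian hedgehog, ihha, an osteoblast ligand in the fin, was at 1.7 and 1.73 CPM against 10.6 and 11.7 CPM (-2.68). Of 15 receptors and targets 3 were higher and 6 lower, a balance that turned to 5 and 2 with the batch term and 7 and 3 within batch 3. The coreceptors gas1a at 1144 and 1117 CPM against 105 and 116 CPM (edgeR log2 fold change 3.37 with SE 0.12, adjusted p = 3.16e-11), gas1b (2.24) and cdon (0.84) were the higher 3. The receptor and target ptch1 was at 19 and 18.8 CPM against 62.1 and 59.2 CPM (-1.67) and the target factor gli1 at 11.9 and 12.8 CPM against 38.3 and 39.8 CPM (-1.65). For the transducer smo the difference was 0.00.

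Bmp and Tgf-beta ligands were higher in 8 of 21 and lower in 9, but 8 and 5 with the batch term and 12 and 6 within batch 3. The main counts are near the shares of all tested genes, 36.8% higher and 38.5% lower. The ligands bmp4 at 99.9 and 98.1 CPM against 18.7 and 19.5 CPM (edgeR log2 fold change 2.39 with SE 0.11, adjusted p = 3.83e-10), bmp5 (2.11) and gdf6a (1.91) were higher, bmp8a (-1.70) and tgfb2 (-1.09) lower. Inhibitors and targets were higher in 14 of 24 and lower in 7 (3 with the batch term), with the Bmp antagonist nog1 at 156 and 180.5 CPM against 11.2 and 9.43 CPM (edgeR log2 fold change 4.04 with SE 0.14, adjusted p = 2.49e-11) and the activin antagonist fstl3 at 255 and 261 CPM against 33.5 and 29.6 CPM (3.04). Both kept the call in the batch fits. The related antagonists nog3 (-2.19) and fsta (-2.79) were lower, while fstb, the paralogue of fsta, was higher (1.73). The receptor bmpr2a was lower here (-1.70) and differed by 0.15 within batch 3. Its paralogue bmpr2b was higher (1.46).

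Retinoic acid genes moved in both directions. Of 28 tested 14 were higher and 10 lower (9 and 9 with the batch term). The breakdown enzyme cyp26b1 stood at 768 and 704 CPM against 248 and 227 CPM (edgeR log2 fold change 1.64 with SE 0.11, adjusted p = 1.56e-08) and its relative cyp26a1 at 2.05 and 1.42 CPM against 84.1 and 95 CPM (edgeR log2 fold change -5.67 with SE 0.17, adjusted p = 1.2e-11). The fibroblasts lay above the whole fins for one enzyme and far below for the other. The binding proteins crabp2a (1.72) and rbp5 (1.64) and the first-step dehydrogenases rdh10a (1.57) and rdh10b (1.64) were higher, and the synthesis gene aldh1a3 lower (-3.55). Igf genes were higher in 6 of 19 and lower in 6 (10 and 4 within batch 3): beside igf2b, the adaptor irs2a (3.50) and the binding protein igfbp3 (2.24) were higher and igfbp2b lower (-3.41). Both main Igf counts are under the shares of all tested genes, 36.8% higher and 38.5% lower. Of 18 Notch receptors and targets 9 were higher and 5 lower, with a median of 0.75 (6 and 5 with the batch term, 7 and 5 within batch 3). The receptors notch2 (-1.93), notch3 (-3.46) and notch1b (-5.17) were lower, and notch1a was not called (-0.04). Of 6 Notch ligands 1 was higher and 4 lower, and their median of -1.17 became 0.10 within batch 3. The ligands jag1a (-1.75) and jag2b (-2.73) were lower and jag1b higher (0.41). The ligand dld was lower here (-1.96) and differed by 0.13 within batch 3. Of 39 other growth factor ligands 17 were higher and 14 lower (19 and 7 with the batch term, 20 and 9 within batch 3). At least 4-fold apart were 9 higher and 4 lower ones. Growth factors with higher levels included the vessel growth factor vegfaa (3.22), pdgfab (2.14), kitlga (2.17), csf1a (1.66) and bdnf (2.85). These were picked from the higher side only, and log2 fold changes of the list ran from -7.20 to 5.99. The paralogue of kitlga, kitlgb, was lower (-1.09).

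**Figure D3:**
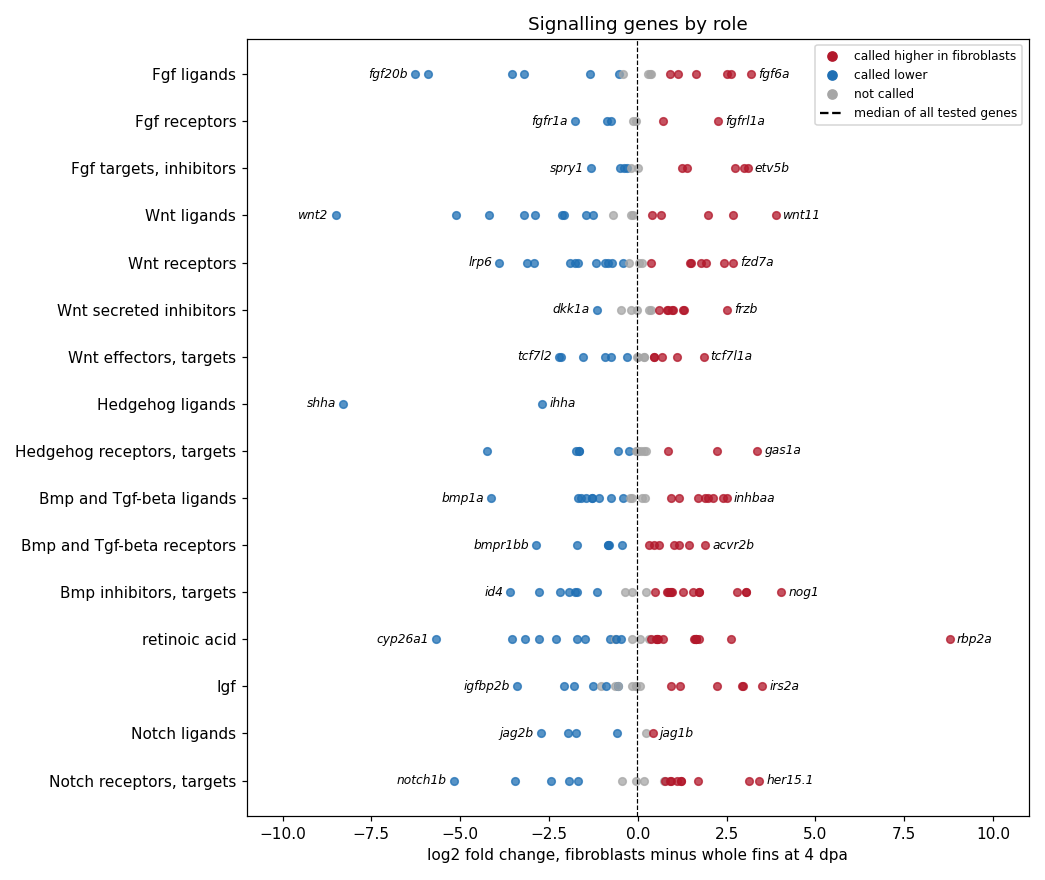
Log2 fold change of signalling genes by pathway and role, fibroblasts minus whole fins at 4 dpa (n = 2 and 2), with the lowest and highest member of each row named, except the lowest of the Hedgehog receptors and targets. Hedgehog ligands lie far to the left and 8 of 14 secreted Wnt inhibitors to the right; values of genes with 3 or fewer counts in a group (shha, wnt2, rbp2a, fgf20b) depend on the fit.

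Epidermal genes formed the largest block of lower genes among the cell-type lists. Of 68 tested 63 were lower and 4 higher, with a median of -3.40. The basal keratin krt5 stood at 3100.5 and 3071 CPM against 34613 and 30855 CPM (edgeR log2 fold change -3.39 with SE 0.14, adjusted p = 9.57e-11), the epithelial cadherin cdh1 at 12.3 and 9.4 CPM against 473 and 510.1 CPM (edgeR log2 fold change -5.49 with SE 0.15, adjusted p = 9.08e-12), and krt17 at 19.3 and 21.5 CPM against 1299 and 1704 CPM (-6.19). For each, every whole-fin library was many fold above every fibroblast library. The simple epithelial keratin krt18 was the main exception, at 5867 and 6374 CPM against 1809.5 and 1726 CPM (edgeR log2 fold change 1.81 with SE 0.12, adjusted p = 1.02e-08), with krt8 close in both groups at 1633 and 1714 CPM against 2223 and 1999 CPM (-0.32); within batch 3 the difference of krt18 was -0.72. Epithelial transcription factors followed, 23 of 32 lower and 7 higher. The basal epidermal factor tp63 was at 14.2 and 14.2 CPM against 290.0 and 288 CPM (-4.34) and grhl2a at 2.15 and 3.33 CPM against 117 and 115 CPM (-5.39). The higher factors included mafba (2.45) and the Dlx genes dlx2a (1.35) and dlx4b (0.74). The paralogues of these Dlx genes went the other way and further, dlx2b (-3.46) and dlx4a (-3.24).

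Genes of the regeneration epidermis went both ways, with 11 higher and 14 lower of 29 (12 and 10 with the batch term). The higher count is near the share of all tested genes, of which 36.8% were higher and 38.5% lower. The fin fold factors sp8a at 10.1 and 12.6 CPM against 120.2 and 129.6 CPM (-3.44) and sp8b (-4.64) and the apolipoprotein apoeb at 345 and 359.6 CPM against 3147 and 3737 CPM (-3.27) were lower. Higher ones, such as bmp4 and msxd, are in part also on the blastema or ligand lists. Of 21 basement membrane genes 17 were lower and 3 higher (6 within batch 3), with a median of -2.89. The Fraser complex genes, which anchor epidermis to dermis, stood apart: fras1 at 0.937 and 0.889 CPM against 185 and 241 CPM (edgeR log2 fold change -7.85 with SE 0.19, adjusted p = 6.24e-12), frem2a at 3.12 and 3.58 CPM against 272 and 320.5 CPM (-6.45) and frem2b (-6.51). The collagen IV gene col4a5 (-6.92) and the laminins lama5 (-5.70) and lamb4 (-6.79) were lower, while the mesenchymal laminin lama4 was higher at 403 and 601 CPM against 249.6 and 213 CPM (1.13). Integrins and cadherins were lower in 16 of 24 (10 within batch 3), among them the laminin receptor chain itga3b (-6.85).

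Of 29 bone genes 17 were lower and 5 higher, a balance that turned to 9 and 13 within batch 3. The osteoblast factor sp7 stood at 0.304 and 0.457 CPM against 35.3 and 33 CPM (edgeR log2 fold change -6.46 with SE 0.20, adjusted p = 1.29e-11), the hypertrophic collagen col10a1a at 1715 and 2324 CPM against 15210.0 and 13660.0 CPM (edgeR log2 fold change -2.82 with SE 0.16, adjusted p = 3.01e-09), and scpp7, of the secreted phosphoproteins of mineralised tissue, at 0.0253 and 0.152 CPM against 105 and 130.4 CPM (-10.31). In each of these genes the groups were far apart. The calcification inhibitor mgp went the other way, at 67.3 and 53 CPM against 7.19 and 4.87 CPM (3.33), and the early bone factors runx2a (0.63) and dlx5a (0.53) were higher, with runx2b not called (0.05). Against the 2 dpa fins the list median was 0.54 in place of -0.67, and col10a1a was 0.83. Of 11 cartilage matrix genes 6 were higher and 2 lower (3 and 3 with the batch term); col9a1b was higher (3.95) at under 3 CPM and turned with the batch term (-1.08).

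Vessel, mural and nerve genes were mostly lower, and pigment genes were so in the comparison across batches. Endothelial genes were lower in 25 of 36 with a median of -2.26, for example kdr, a Vegf receptor, at 1.75 and 1.04 CPM against 24.2 and 18.9 CPM (-3.93) and flt4 at 3.55 and 3.43 CPM against 38.7 and 37.8 CPM (-3.44). The endothelial cadherin cdh5 was at 0.0507 and 0.178 CPM against 1.22 and 0.636 CPM (-2.97). Of 13 mural genes 8 were lower and 3 higher, the latter with the signalling regulator rgs5b, a pericyte marker in mammals, at 126 and 124 CPM against 4.55 and 3.21 CPM (5.02). Pigment genes were lower in 16 of 23 (9 with the batch term and 7 within batch 3), including the receptor kita (-5.89) and the melanin enzyme tyr (-3.51), and nerve and glial genes in 19 of 30, including sox10 at 0.735 and 0.99 CPM against 8.74 and 7.8 CPM (-3.24). The nerve and glial list also held higher genes, the myelin regulator egr2b at 19.9 and 15.3 CPM against 0.594 and 0.332 CPM (5.26) and pmp22b at 478 and 468 CPM against 48.6 and 39.6 CPM (3.44). Skeletal muscle genes were at low levels, with 2 of 13 higher and 4 lower.

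Leukocyte genes were higher in the fibroblast libraries in 33 of 54 and lower in 12, with a median of 0.99, and with the batch term in 27 (7 lower). Macrophage genes were among the higher: spi1b, a myeloid factor, at 113 and 117 CPM against 17.4 and 10.9 CPM (edgeR log2 fold change 3.03 with SE 0.20, adjusted p = 9.57e-07), the complement genes c1qb (2.40) and c1qc (2.31), the oxidase subunit ncf1 (3.32) and mpeg1.1 at 152 and 189 CPM against 108 and 83.2 CPM (0.85). For spi1b both fibroblast libraries were above both whole-fin ones; for mpeg1.1 the gap was smaller, and with the batch term its difference was 0.09. The neutrophil peroxidase mpx (-1.63), the T-cell kinase lck (-2.65) and the antigen-presentation genes cd74a (-2.34) and cd74b (-2.57) were lower. Osteoclast genes were higher in 8 of 10 (5 in each batch fit), with the fusion gene ocstamp at 43.4 and 66.4 CPM against 1.53 and 0.47 CPM (5.80) and the factor nfatc1 (2.34). The 1 lower osteoclast gene, the integrin itgb3a (-3.48), stayed lower with the batch term (-3.41) and within batch 3 (-3.15). Chemokine and cytokine genes were higher in 20 of 42 and lower in 14 (19 and 6 with the batch term, 18 and 9 within batch 3). The chemokine cxcl12a, made by fin fibroblasts, stood at 276 and 279 CPM against 136 and 125 CPM (1.099), cxcl14 at 265 and 254 CPM against 30.2 and 27.2 CPM (3.19) and the interleukin il1b at 78.3 and 38.9 CPM against 7.47 and 5.83 CPM (3.15), whereas ccl27b was at 2.46 and 1.68 CPM against 71.7 and 59 CPM (-4.97). Red blood cell genes were higher in 9 of 16 and lower in 2 (1 and 2 with the batch term, 0 and 7 within batch 3), at summed levels of 91.1 and 92.9 against 48.1 and 60.5 CPM, and their median of 1.25 turned to -0.71 within batch 3.

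Immediate early and heat shock genes were higher in 46 of 50 and lower in 2, with a median of 2.97; with the batch term 44 were higher and 1 lower, and within batch 3 42 and 3. The heat shock genes hsp70l at 7263 and 6387 CPM against 1.92 and 1.38 CPM (edgeR log2 fold change 12.02 with SE 0.21, adjusted p = 3.03e-13) and hsp70.1 at 8737 and 7768 CPM against 2.57 and 2.21 CPM (edgeR log2 fold change 11.76 with SE 0.19, adjusted p = 2.45e-13) led the named genes in fold change. For both genes each fibroblast library was far above each whole-fin library. The chaperone hsp90aa1.2 (7.71), the AP-1 genes fosb (7.01) and fosl1a (6.67) and the stress factor atf3 (6.48) followed. At 0 dpa hsp70.1 was at 42860 and 63210 CPM in the fibroblasts and 3.53 and 2.51 CPM in the whole fins of batch 1. Genes named above for other roles, such as serpinh1b, hspa5, ddit3 and il1b, are also known from stress responses, and the part of cell handling in their levels was not tested. Cytosolic ribosomal protein genes, searched by symbol after the files were open, were lower in 76 of 79 and higher in 1, with a median of -2.27 (51 lower with the batch term, 74 within batch 3); they summed to 23186 and 22172 against 88964 and 89123 CPM. Respiratory chain genes were higher in 45 of 81 and lower in 15 (4 with the batch term, 7 within batch 3), with log2 fold changes from -1.36 to 1.16, and proteasome genes were higher in 19 of 44 and lower in 13, a balance that turned to 6 and 11 with the batch term, where their median of 0.20 became -0.09; both families were also searched by symbol.

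Most mitosis genes were lower in the fibroblasts, 43 of 54 with a median of -0.79, but 23 with the batch term and 21 within batch 3. DNA replication genes were lower in 24 of 48, higher in 6 and not called in 18, with a median of -0.28, and 15 were lower within batch 3. The proliferation marker mki67 stood at 134 and 164 CPM against 275 and 248 CPM (edgeR log2 fold change -0.80 with SE 0.12, adjusted p = 4.69e-05), with -0.59 and no call within batch 3, and the spindle gene aspm at 12.7 and 12.8 CPM against 103 and 95.1 CPM (-2.94). The mitotic phosphatase cdc25b was higher, at 119.9 and 132 CPM against 30.5 and 26 CPM (2.17). At 0 dpa mki67 was at 12.9 and 7.79 CPM in the fibroblasts, and neither of these libraries came near the 4 dpa fibroblasts. The cyclin-dependent kinase gene cdk4 was at 0.279 and 0.305 CPM against 33.8 and 34.4 CPM (-6.84). Its difference was present at 0 dpa as well (-7.78), and the change between the times was not called (1.08, SE 0.45).

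Genes induced early after amputation were found on both sides. In libraries outside the 4 dpa comparison, 426 genes were at least 4-fold higher at 2 than at 0 dpa in both the LEN deletion fins and those labelled whole fin of batch 3, and 413 of them were tested at 4 dpa. Higher in the fibroblasts were 145 (35.11%, against 36.8% of all tested genes) and lower 193 (46.7% against 38.5%). The median was -0.30. With genes at least 2-fold higher at 2 dpa, 563 of 1261 were higher (44.6% against 36.8%) and 441 lower (35.0% against 38.5%). The median was 0.18, so the balance turns with the threshold.

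Pairs of related gene symbols had calls in the same direction more often than in opposite directions. Among 1115 tested pairs of symbols that differ only in a last letter a or b, not all of which are duplicates, 436 had calls in the same direction and 235 in opposite directions (114 with the batch term and 154 within batch 3). With 36.8% of all tested genes higher and 38.5% lower, opposite calls arise between unrelated genes too, and the count is a description. Both members were at least 4-fold apart in opposite directions in 5 pairs. The LIM-domain proteins fhl2a (2.34) and fhl2b (-3.93) were one such pair, at 84.9 and 68.7 CPM against 15.5 and 15.12 CPM and 0.0253 and 0.102 CPM against 1.1 and 0.94 CPM. Others were the sphingosine receptors s1pr5a (2.40) and s1pr5b (-4.18) and the adrenergic receptors adra2a (2.43) and adra2b (-2.42). Near-identical copies can exchange reads in counting, so their split is uncertain.

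The same contrast at 0 dpa, between uninjured fibroblasts (batch 3) and uninjured whole fins (batch 1), used other libraries with the same confounding. The difference between the tissues changed from 0 to 4 dpa for 4511 of 12442 genes (36.3%) in 1 fit of 8 libraries, to a higher value for 2345 (18.8%) and a lower one for 2166 (17.4%). Without 4 dpa whole fin replicate 1 the count was 2971, and the fit of 8 libraries moved the median 4 dpa difference of all genes by 0.13. Of 22 genes of known roles, 14 had such a change and in each of the 14 the log2 difference, fibroblasts minus whole fins, was lower at 4 dpa than at 0 dpa. Fibroblast levels themselves were not lower in each: col1a1a was at 15900 and 15390 CPM at 0 dpa, under its 4 dpa levels, and tnc at 34.9 and 36.2 CPM. For lepb the log2 difference was 9.45 at 0 dpa, when the fibroblasts held 169 and 258 CPM and the whole fins 0.455 and 0.197 CPM, and 2.97 at 4 dpa (change -6.48, SE 0.47, edgeR adjusted p = 2.74e-05). Its fibroblast levels at 4 dpa lay within their range at 0 dpa, while the 4 dpa whole fins held 38.05 and 27.79 CPM. For col10a1a the difference went from 1.93 to -2.70, and for lef1 from 2.43 to -1.40. The change was not called for tph1b (0.64), and1, igf2b, krt5, cdh1, mpeg1.1, cdh5 and mki67. A missing call does not show that the difference stayed the same. The 0 dpa fibroblast replicates were far apart for krt5 (26470 and 9205 CPM), cdh1 (80.8 and 31.2 CPM) and mpeg1.1 (48 and 119 CPM). Their chi-square per degree of freedom was 121, against 43.2 for the 0 dpa whole fins. The SE of the change was 0.58 for krt5, 0.56 for cdh1 (change -1.59) and 2.84 for cdh5.

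**Figure D4:**
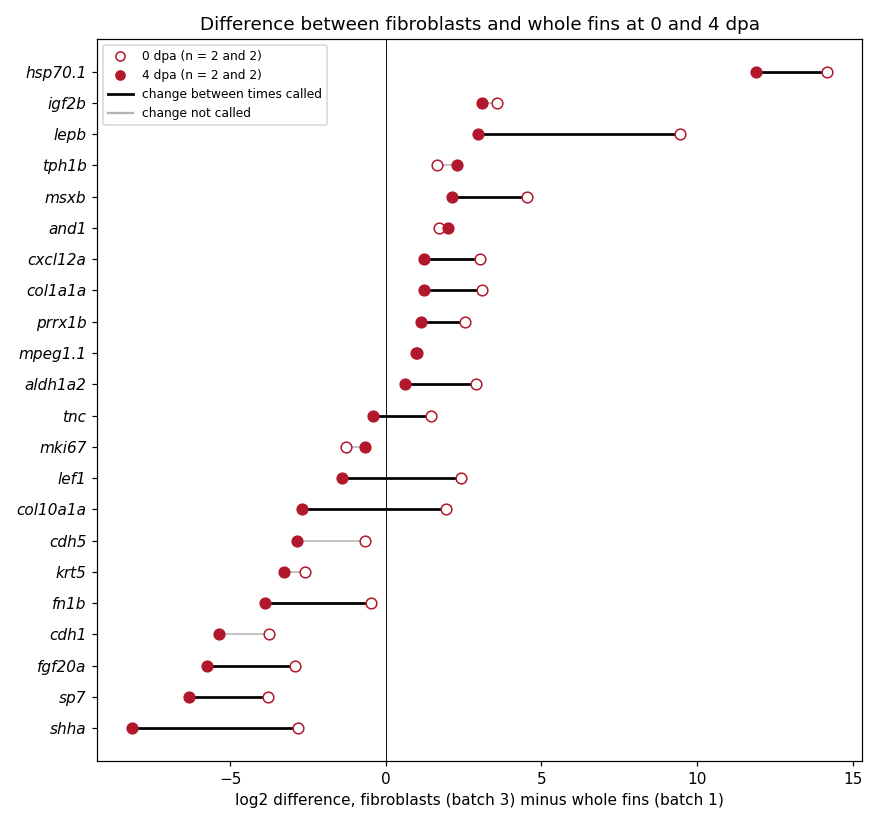
Log2 difference between fibroblasts (batch 3) and whole fins (batch 1) at 0 dpa (open) and 4 dpa (filled) for 22 genes, from 1 fit of 8 libraries with 2 per group. Black lines join the 14 genes whose change was called; for lepb the difference was 9.45 at 0 dpa and 2.97 at 4 dpa.

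**Figure D5:**
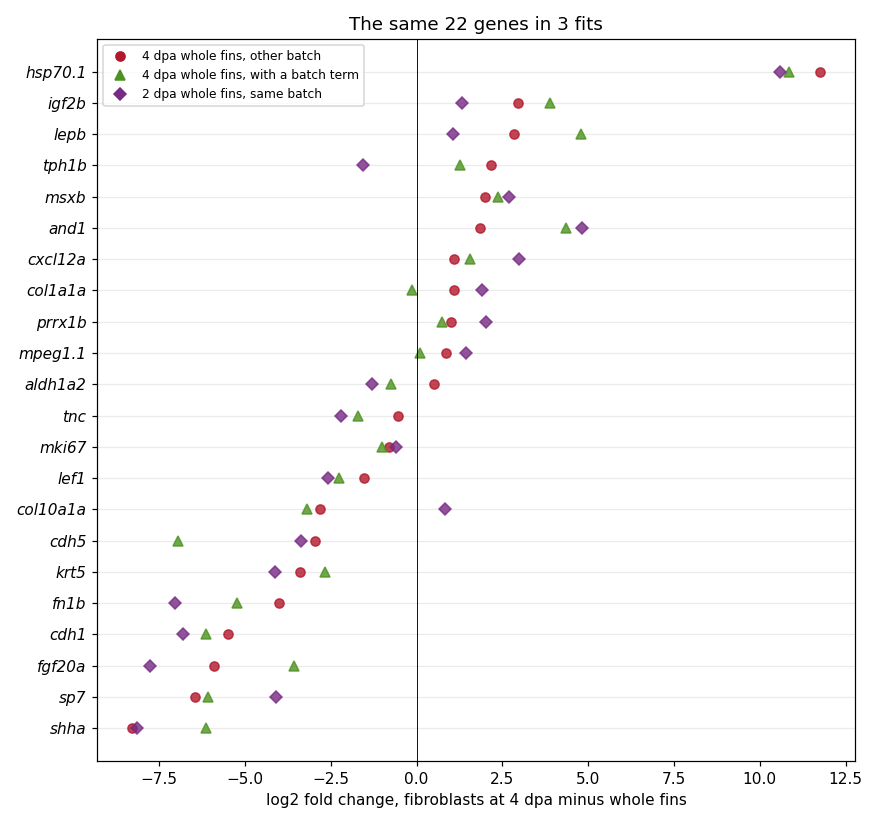
Log2 fold change of the 22 genes in the comparison with 4 dpa whole fins of the other batch, in the fit with a batch term, and against 2 dpa whole fins of the same batch. Points to the left of 0 for one fit and to the right for another mark a change of sign, as for tph1b and col10a1a within batch 3, col1a1a with the batch term (not called there) and aldh1a2 in both.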

How the data were processed

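The 4 RNA libraries at 4 days post amputation (dpa) and 8 further libraries of batches 1 and 3 were used; library pooling and handling are given above. Per the labels' protocols, libraries were made with a KAPA stranded mRNA kit, and the authors deposited whole-number counts of reads per gene symbol. Per the submitters' processing notes, Trim Galore, TopHat2 2.1.1 and HTSeq 1.6.1 were named, with the build danRer10; no source used here states the annotation, the strand setting or the treatment of reads shared between gene copies. Rows that name no gene (28.2 to 32.9% of reads with no feature at 4 dpa) were left out of library sizes and tests.

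Genes were kept by edgeR's expression filter, scaled by TMM and tested with edgeR 4.0.16's robust quasi-likelihood F test with Benjamini-Hochberg adjustment (R 4.3.3). The 4 libraries were fitted alone; the standard error is the absolute log2 fold change over the square root of F. CPM were scaled by TMM over 12 libraries. Change between 0 and 4 dpa was an interaction in 1 fit of 8 libraries. Alternatives were DESeq2's size factors and Wald test (DESeq2 1.42.0), library size only, no filter, each replicate left out, a replicate block, a batch term and a fit within batch 3. Counting intervals are exact, at 95%, and cover counting error only; a count of 0 is set against a floor of 3 counts over the group. The steps were tested on simulated data in which only a small share of genes differed, equally in both directions. In the data 75.4% of tested genes were called, so that simulation cannot check scaling or false calls at such a share. Of 1631 names in the gene lists, 1280 matched symbols or synonyms. The libraries, gene lists and naming rule were chosen with earlier results of these data known. Some genes that the naming rule selects are not reported here.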

Additional observations from a re-analysis of the deposited data

Results flagged for a closer look

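For 14 genes the difference between fibroblasts and whole fins changed from 0 to 4 dpa beyond the spread between replicates, by a test of the change itself (interaction term, edgeR, adjusted p under 0.05, 1 fit of 8 libraries with 2 per group). In each the log2 difference, fibroblasts minus whole fins, was lower at 4 dpa than at 0 dpa, which does not say that the fibroblast level fell, and 4511 of 12442 genes (36.3%) had a called change, in either direction. The log2 change was -6.48 for the leptin gene lepb, -5.33 for the ligand gene shha, -4.63 for the bone collagen col10a1a and -3.83 for the Wnt effector lef1. Among matrix and mesenchyme genes it was -3.41 for fn1b, -2.41 for msxb, -2.28 for aldh1a2, -1.87 for tnc, -1.86 for col1a1a and -1.4 for prrx1b. It was -2.84 for fgf20a, -2.55 for sp7, -2.29 for hsp70.1 and -1.79 for cxcl12a. At 0 dpa the tissue difference carries the same batch difference as at 4 dpa. With 3 counts of shha in the 4 dpa fibroblasts, its value depends on the fit.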

How the results depend on the processing

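The 4 dpa counts of 4443 higher and 4643 lower genes kept within 1.5 times under every alternative except the batch term, where 2949 were higher; library size only gave 3866 and 5062, and the 1 fit of 8 libraries 4520 and 3741, so the share of higher calls moved from 48.9% to 43.3% and 54.7%. Leaving out 1 replicate gave 3898 to 4324 higher and 4147 to 4525 lower; where a group was left with 1 library, that library was assumed to vary like the other group. With replicate number as a block the counts were 4381 and 4611; deviations of same-numbered libraries had a correlation of 0.00459 over 12057 genes, so they share only a number.

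For the change from 0 to 4 dpa, library size only gave 1489 genes toward higher values in place of 2345. Leaving out 1 replicate gave 2971 to 5167 in all, the lowest without 4 dpa whole fin replicate 1, 1338 to 2150 toward higher values, the lowest without 0 dpa whole fin replicate 2 and 1460 without 4 dpa whole fin replicate 1, and 1511 to 3125 toward lower ones. Opposite paralogue pairs numbered 114 with the batch term and 154 within batch 3 in place of 235. With the 2-fold rule for early genes 563 of 1261 were higher (44.6%) and 441 lower (35.0%).

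Among named genes called in the main or the alternative fit, signs turned only with the batch term and within batch 3. Turned signs of genes called in neither fit were not counted. With the batch term the log2 value was -0.14 for col1a1a, -0.20 for col1a2, -0.64 for col1a1b, -0.73 for aldh1a2, -1.08 for col9a1b, -0.0314 for zgc:92880, 0.70 for dkk1a, 0.43 for dusp6, 0.71 for etv4 and 3.17 for wnt5a. Within batch 3 it was -0.72 for krt18, 0.83 for col10a1a, -1.55 for tph1b, -1.28 for aldh1a2, 2.87 for col8a2, 1.14 for bgna, 0.94 for adamts9, 1.71 for wnt16, 0.15 for bmpr2a, 0.13 for dld, 0.90 for dkk1a, -0.43 for inhbab, 1.42 for msxe, 1.13 for twist2 and 0.48 for wnt5a. The cause was not tested.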
